A study of Homo sapiens with 12 samples.

Results

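TXNIP, its arrestin-domain relatives ARRDC1, ARRDC2, ARRDC3 and ARRDC4, and the transcription factors MLXIP (MondoA), MLXIPL (ChREBP) and MLX that connect this family to glucose were examined across taxane resistance in the prostate cancer cell line Du145. These 8 genes, of 60616 in each of the tables, were matched by symbol to their Ensembl identifiers. TXNIP was chosen because it was nearly silent in Du145-CbzR, so its values there are given as a description with no test. All 8 genes were among the 18218 tested in the comparison of resistant lines, and 7 were among the 15704 tested in the BRPF1 knockdown, where ARRDC4 had no read in any library.

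RNA was sequenced from parental Du145 cells (Du145-P), from docetaxel-resistant cells (Du145-DtxR) and from cabazitaxel-resistant cells (Du145-CbzR), with 2 libraries of each, and from Du145-DtxR cells transfected with a control siRNA (siControl) or with an siRNA against BRPF1 (siBRPF1), with 3 libraries of each. Du145-DtxR and Du145-CbzR were selected by 72 h exposures to their taxane, starting at 1 nM and doubling up to 125 nM, while Du145-P was passaged alongside. Both siRNA groups were therefore docetaxel-resistant, the transfection medium was removed after 24 h, and RNA was taken 48 h later. Since docetaxel and cabazitaxel resistance are each represented by 1 derived line, drug and clone cannot be told apart, and, although the study's methods call the replicates biological, no source used here says whether they were separate cultures, so that p-values reflect the variation among these libraries.

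TXNIP is an alpha-arrestin that binds and inhibits thioredoxin and promotes the removal of the glucose transporter GLUT1 from the plasma membrane. Its gene is switched on when glucose-6-phosphate accumulates, because MondoA or ChREBP, each paired with MLX, then binds carbohydrate response elements, which are paired E-box-like sites set a few bases apart. ARRDC4 is its closest relative and is also induced by glucose, whereas ARRDC1 drives the budding of microvesicles at the plasma membrane and ARRDC2 and ARRDC3 act as adaptors of NEDD4-family ubiquitin ligases.

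The 250 bases before the start of TXNIP (chr1:145996580-145996829, minus strand) and of ARRDC4 (chr15:97960453-97960702, plus strand) are shown because these members had the lowest counts in a resistant line. Sequences are from RefSeq on GRCh38.p14, printed along the strand of the gene, and capitals mark matches to the letters searched.
TXNIP: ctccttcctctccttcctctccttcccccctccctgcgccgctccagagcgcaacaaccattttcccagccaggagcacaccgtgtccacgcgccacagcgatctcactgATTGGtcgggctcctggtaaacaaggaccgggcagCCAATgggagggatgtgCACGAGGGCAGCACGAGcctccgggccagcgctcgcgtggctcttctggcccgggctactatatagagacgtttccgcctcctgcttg
ARRDC4: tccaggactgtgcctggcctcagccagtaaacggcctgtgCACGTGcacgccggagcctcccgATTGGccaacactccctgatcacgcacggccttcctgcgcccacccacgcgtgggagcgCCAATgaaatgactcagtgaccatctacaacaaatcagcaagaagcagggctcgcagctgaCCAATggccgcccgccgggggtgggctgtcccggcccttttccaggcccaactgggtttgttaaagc
Matches were sought on both strands of windows from 250 bases before to 50 bases after each start to the E-box CACGTG, to CCAAT, and to a carbohydrate response element written as CACGNG, any 5 bases and CNCGTG. TXNIP held CCAAT at position -140 on the opposite strand and at position -105 on its own strand, counted from the start of the gene. ARRDC4 held CCAAT at positions -187, -128 and -67, the first of them on the opposite strand, and an E-box at position -210. Among 35116 windows of the same length, 34.6% held a CCAAT box, 10.8% held at least 2, and 7.26% held an E-box. None of the members' windows held the carbohydrate response element as written, which was present in 0.0228% of all windows, and this says only that these letters are not in these windows. After the TXNIP window had been read, a second spelling with both ends on the same strand (CACGNG, any 5 bases, CACGNG) was searched as well. TXNIP then had 1 match, at position -88, as did 20 windows in all (0.057%), and no window of the other members had one. A match is a description of letters and was not tested as a binding site.

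Library totals ran from 27512422 to 30593573 estimated counts in the comparison of lines and from 16667822 to 17306275 in the knockdown. Levels are given as CPM, counts scaled to the size and composition of each library. All 6 epithelial markers examined reached at least 1 CPM in both experiments, their sum ranging from 678 to 1020 CPM in the lines, while the androgen-axis genes KLK2 and FOLH1 were at 0, and all 3 endothelial and all 3 hepatocyte markers stayed below that level. Of the leukocyte markers only CD68 reached it, as did the fibroblast marker COL1A1 and the neuroendocrine markers SYP and ENO2, and in the knockdown the fibroblast marker PDGFRB did as well. The mitochondrial share of counts was 14.3% to 15.3% for Du145-P, 8.91% to 9.48% for Du145-DtxR and 12.1% to 12.7% for Du145-CbzR, and its part in the results below was not tested. BRPF1 itself fell from 29.4, 30.6 and 31.0 CPM with siControl to 8.96, 8.67 and 8.19 CPM with siBRPF1, a log2 fold change of -1.82 (SE 0.10, edgeR adjusted p = 1.787e-06).

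TXNIP (ENSG00000265972, GRCh38 chr1:145992435-145996579, minus strand) was the member with the greatest loss in Du145-CbzR. It had 473 and 434 counts in the Du145-P libraries, whereas Du145-DtxR had 22 and 5 and Du145-CbzR had 0 and 1. In CPM these were 15.4 and 14.4 in Du145-P, against 0.809 and 0.185 in Du145-DtxR, and Du145-CbzR had 0 and 0.0325. The parental libraries lay above all 4 resistant libraries, and both Du145-CbzR libraries lay below both of Du145-DtxR. The summed counts put Du145-CbzR 917-fold below Du145-P, with a 95% counting interval of 164-fold to 36240-fold, which covers counting error only, and the log2 ratio of -9.84 became -8.84 without Du145-CbzR replicate 1. Du145-CbzR was 30.6-fold below Du145-DtxR by the same measure, with an interval of 5.05-fold to 1254-fold. That log2 ratio of -4.94 became -3.94 without Du145-CbzR replicate 1, -3.51 without Du145-DtxR replicate 1 and -5.64 without Du145-DtxR replicate 2. Both counting intervals rest on the Du145-CbzR counts for which TXNIP was chosen, so they are no test of a difference. In Du145-DtxR, TXNIP was 29.7-fold below Du145-P, with a log2 fold change of -4.89 (SE 0.31, edgeR's quasi-likelihood test with Benjamini-Hochberg adjustment over all genes tested, adjusted p = 6.02e-08). This test uses the same Du145-P libraries as the comparison by which TXNIP was chosen. The size of the loss rested on which library stood for Du145-DtxR: the log2 fold change was -6.29 without Du145-DtxR replicate 1 and -4.19 without Du145-DtxR replicate 2. Bulk libraries cannot separate less TXNIP RNA per cell from fewer cells that express it.

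ARRDC4 (ENSG00000140450, GRCh38 chr15:97960703-97973833, plus strand) was lower in both resistant lines, with its greatest loss in Du145-DtxR, where TXNIP was also low. Its libraries held 88 and 80 counts in Du145-P, none in either Du145-DtxR library, and 38 and 33 in Du145-CbzR. These counts correspond to 2.86 and 2.65 CPM in Du145-P and to 1.23 and 1.07 CPM in Du145-CbzR. The 3 lines did not overlap, and Du145-CbzR stood between the others. Against a floor of 3 counts over both libraries, the docetaxel-resistant cells had at least 49.9-fold lower ARRDC4 than the parental cells (edgeR adjusted p = 3.207e-07). Du145-CbzR was below Du145-P by a log2 fold change of -1.25 (SE 0.25, edgeR adjusted p = 0.001464) and at least 20.9-fold above Du145-DtxR (edgeR adjusted p = 4.103e-06). Thus the lowest library for TXNIP was one of Du145-CbzR and the lowest libraries for ARRDC4 were those of Du145-DtxR.

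**Figure D1:**
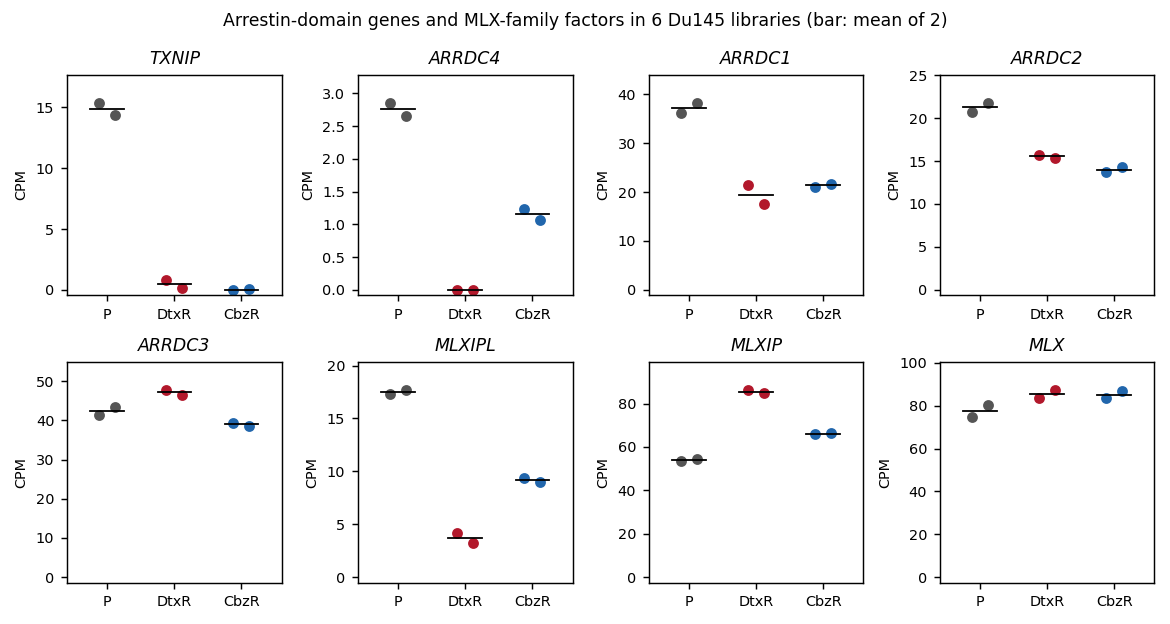
CPM of the 8 genes (vertical axes, each starting at 0) in the 2 libraries of Du145-P, Du145-DtxR and Du145-CbzR, with points for libraries and bars for group means. TXNIP sits at 14.4 to 15.4 CPM in Du145-P and below 1 CPM in every resistant library, whereas ARRDC4 is at 0 in Du145-DtxR and at 1.07 to 1.23 CPM in Du145-CbzR.

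The remaining arrestin-domain genes changed less. ARRDC1 (ENSG00000197070, chr9:137605685-137615360, plus strand), which recruits the ESCRT machinery to bud microvesicles, was at 36.2 and 38.3 CPM in the parental libraries, 21.5 and 17.5 in those of Du145-DtxR, with 21.1 and 21.7 for Du145-CbzR. Both resistant lines lay below the parental libraries, with log2 fold changes of -0.93 in Du145-DtxR (SE 0.09, edgeR adjusted p = 2.048e-06) and -0.80 in Du145-CbzR (SE 0.09, edgeR adjusted p = 1.287e-05). The resistant lines overlapped, with a log2 difference of 0.14 (edgeR adjusted p = 0.217), although that difference passed without Du145-DtxR replicate 1, at 0.29 (edgeR adjusted p = 0.018). ARRDC1 shares 35 bases at its end with the antisense gene ARRDC1-AS1, which rose by 0.29 on the log2 scale in Du145-DtxR (edgeR adjusted p = 0.002985) and fell by 0.56 in Du145-CbzR (edgeR adjusted p = 4.838e-05), and the use of strand in counting is not given in the sources used here.

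ARRDC2 (ENSG00000105643, chr19:18001132-18014102, plus strand) was at 20.7 and 21.8 CPM in Du145-P, then 15.7 and 15.3 in Du145-DtxR, while Du145-CbzR gave 13.7 and 14.3. It fell in both lines, by 0.45 in Du145-DtxR (SE 0.07, edgeR adjusted p = 0.0001978) and by 0.60 in Du145-CbzR (SE 0.07, edgeR adjusted p = 3.316e-05) on the log2 scale. The line means lay in the order Du145-P, Du145-DtxR and Du145-CbzR, but the resistant lines did not differ beyond the threshold (log2 difference -0.15, edgeR adjusted p = 0.107).

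ARRDC3 (ENSG00000113369, chr5:91368631-91383317, minus strand), an adaptor in the ubiquitination and internalization of cell-surface receptors such as the beta2-adrenergic receptor, moved little. Its libraries gave 41.4 and 43.4 CPM in Du145-P, against 47.8 and 46.6 in Du145-DtxR, and Du145-CbzR had 39.4 and 38.7. Its log2 fold change of 0.15 in Du145-DtxR (SE 0.06) passed narrowly (edgeR adjusted p = 0.0406) and no longer passed in 10 of 12 alternative settings. In Du145-CbzR the log2 fold change was -0.12 (edgeR adjusted p = 0.117), and Du145-CbzR was below Du145-DtxR by -0.27 (SE 0.06, edgeR adjusted p = 0.001746). The antisense gene ARRDC3-AS1 overlaps ARRDC3 over 2969 bases but held only 82 counts in all 6 libraries. The last human member of the family, ARRDC5, had at most 1 count in any library and was not tested.

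Of the factors that act on these genes, MLXIPL (ENSG00000009950, chr7:73593194-73624543, minus strand), which encodes ChREBP, fell most. It was at 17.3 and 17.7 CPM in the parental libraries, 4.19 and 3.21 in those of Du145-DtxR, with 9.38 and 9.03 for Du145-CbzR. The 3 lines did not overlap, and Du145-DtxR held the lowest values. The log2 fold change was -2.24 in Du145-DtxR (SE 0.12, edgeR adjusted p = 1.747e-08) and -0.93 in Du145-CbzR (SE 0.11, edgeR adjusted p = 1.827e-05), and Du145-CbzR was above Du145-DtxR by 1.31 (SE 0.13, edgeR adjusted p = 2.656e-06). MLXIP (ENSG00000175727, chr12:122078756-122147344, plus strand), which encodes MondoA, went the other way, from 53.5 and 54.6 CPM in Du145-P to 86.3 and 84.8 in Du145-DtxR, with 65.8 and 66.5 in Du145-CbzR. It rose by 0.66 in Du145-DtxR (SE 0.05, edgeR adjusted p = 3.293e-07) and by 0.29 in Du145-CbzR (SE 0.05, edgeR adjusted p = 0.0005303) on the log2 scale, and Du145-CbzR was below Du145-DtxR by -0.37 (SE 0.05, edgeR adjusted p = 4.264e-05). For both factors, Du145-CbzR thus lay between Du145-P and Du145-DtxR. MLX (ENSG00000108788, chr17:42567072-42573239, plus strand), the partner of both, was at 74.6 and 80.4 CPM in Du145-P, then 83.7 and 87.4 in Du145-DtxR, while Du145-CbzR gave 83.4 and 86.9. Its log2 fold change was 0.14 in each line, which passed in Du145-DtxR (edgeR adjusted p = 0.0435) and not in Du145-CbzR (edgeR adjusted p = 0.0612), and the resistant lines differed by -0.01 (edgeR adjusted p = 0.929). The MLX call in Du145-DtxR no longer passed in 8 of 12 alternative settings, and MLX also overlaps PSMC3IP on the opposite strand over 930 bases.

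Counted together, 5 of the 8 members were lower and 3 higher in Du145-DtxR at an adjusted p under 0.05, where 32.0% of all genes tested were lower and 31.1% higher. ARRDC4 and MLXIPL were also past a log2 fold change of 1, a limit reached by 13.8% of genes in the lower direction. TXNIP was past it too, but the comparison by which it was chosen used the same Du145-P libraries. Its place in these Du145-DtxR counts is therefore a description and not to be set against the shares of all genes. Of the 7 members other than TXNIP, 4 were lower and 1 (MLXIP) was higher in Du145-CbzR, beside 26.3% and 24.4% of all genes. In Du145-CbzR against Du145-DtxR, ARRDC4 and MLXIPL were higher and ARRDC3 and MLXIP lower, beside 31.2% and 31.8% of all genes. These comparisons share libraries and are not independent of each other. Statements that groups did not overlap, here and with siBRPF1, describe the libraries only. The share of all genes whose groups do not overlap is not given, so such statements add nothing to the tests. Per kilobase of merged exon, the mean levels in Du145-P ran from 18.2 CPM for MLX through 9.82 for ARRDC1, 8.51 for ARRDC3, 4.58 for ARRDC2, 4.13 for TXNIP, 3.90 for MLXIP and 3.64 for MLXIPL to 0.679 for ARRDC4. The exon lengths used cover all annotated transcripts, so neighbours in that order were not ranked by a test.

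Knockdown of BRPF1, a reader subunit of MYST histone acetyltransferase complexes, was compared in docetaxel-resistant cells, in libraries that had no part in the choice of TXNIP. TXNIP was low in both arms, with 20, 24 and 19 counts in the siControl libraries and 22, 17 and 10 in the siBRPF1 libraries. In CPM these were 1.25, 1.42 and 1.11 with siControl and 1.26, 1.02 and 0.573 with siBRPF1. The arms overlapped, and the log2 fold change of -0.40 (SE 0.31) did not pass the test (edgeR adjusted p = 0.367). Over 11 alternative settings it ran from -0.66 to -0.14. ARRDC4 had no count in any of the 6 libraries, with floors of 0.060 CPM over the siControl arm and 0.0581 CPM over the siBRPF1 arm, so no fold change was computed.

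ARRDC3 was the arrestin-domain gene that responded. It was at 17.8, 17.5 and 21.1 CPM with siControl and at 32.8, 29.7 and 35.5 CPM with siBRPF1. The arms did not overlap, and ARRDC3 rose 1.74-fold, a log2 fold change of 0.80 (SE 0.11, edgeR adjusted p = 0.0004635), with a range of 0.73 to 0.89 over 11 alternative settings that all kept the call. MLXIP was at 72.2, 79.5 and 78.9 CPM with siControl and at 89.8, 109 and 103 CPM with siBRPF1, a rise of 0.39 on the log2 scale (SE 0.09, edgeR adjusted p = 0.01042). MLXIPL went from 7.74, 12.3 and 9.97 CPM to 4.76, 6.04 and 5.67 CPM, and fell by 0.87 on the log2 scale (SE 0.18, edgeR adjusted p = 0.004655). Neither MLXIP nor MLXIPL overlapped between the arms.

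The other tested members did not pass the threshold. ARRDC1 was at 38.6, 39.6 and 34.4 CPM with siControl and at 37.1, 43.7 and 34.3 CPM with siBRPF1 (log2 fold change 0.03, edgeR adjusted p = 0.841). ARRDC2 was at 17.1, 19.4 and 16.4 CPM against 17.3, 18.5 and 17.1 CPM, and MLX was at 128, 126 and 112 CPM against 121, 130 and 119 CPM. These 3 genes overlapped between the arms, with an edgeR adjusted p of 0.995 for ARRDC2 and 0.895 for MLX. In all, 2 of the 7 tested members rose and 1 fell, where 11.6% of all genes tested rose and 15.1% fell, and no member passed the log2 limit of 1, which 3.83% of all genes did.

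**Figure D2:**
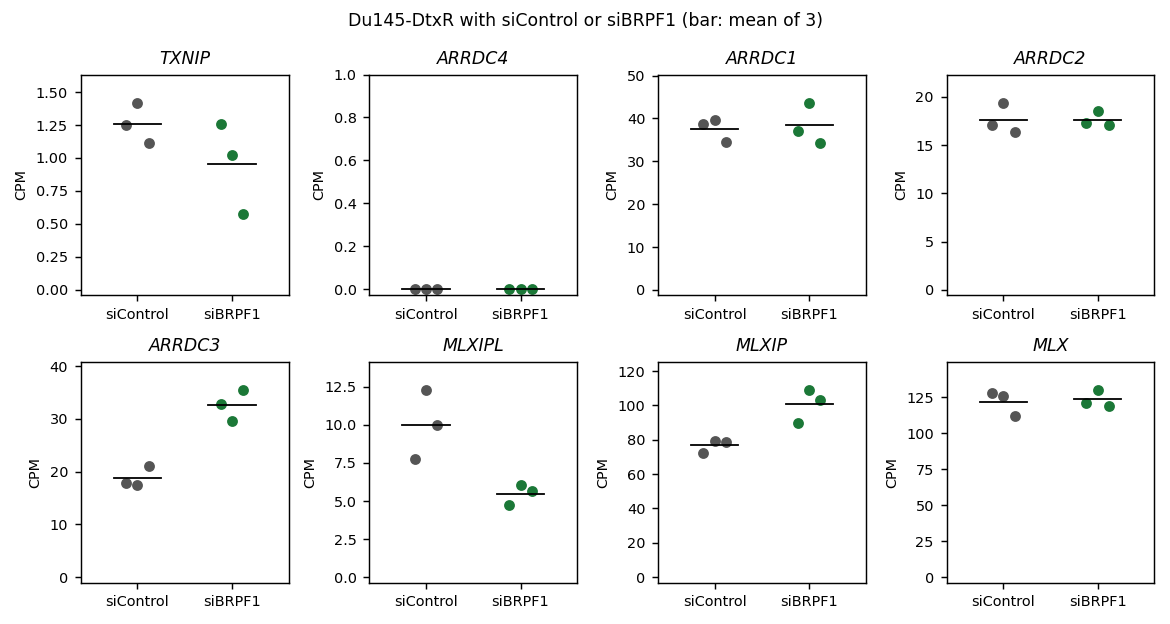
CPM of the 8 genes (vertical axes starting at 0) in 3 siControl and 3 siBRPF1 libraries of Du145-DtxR, with points for libraries and bars for group means. ARRDC3 and MLXIP are higher and MLXIPL is lower in every siBRPF1 library than in any siControl library, TXNIP overlaps, and ARRDC4 is at 0 throughout.

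The genes around TXNIP and ARRDC4 were examined to show how far along the chromosome the losses extended. The 10 nearest tested genes of TXNIP, 5 on each side and up to 325263 bases away, had a median log2 fold change of 0.27 in Du145-CbzR, from -1.50 to 0.54, and 3 were higher and none lower by the test, which at an adjusted p under 0.05 called 24.4% of all genes higher and 26.3% lower. The gene at -1.50, the pseudogene SEC22B4P, had 5 and 15 counts in Du145-P and 3 and 4 in Du145-CbzR, and did not pass (edgeR adjusted p = 0.112). In Du145-DtxR 4 of these neighbours were higher and 3 lower, with a median of -0.003, beside 31.1% and 32.0% of all genes. The closest, POLR3GL, which encodes a subunit of RNA polymerase III and lies 13587 bases away, fell by 0.39 on the log2 scale in Du145-DtxR (edgeR adjusted p = 0.0001488) and gave 0.05 in Du145-CbzR (edgeR adjusted p = 0.537). NBPF10 and NOTCH2NLA belong to families of near-identical copies, so their counts are uncertain.

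A neighbour of ARRDC4 also had no count in Du145-DtxR. LINC00923, a long noncoding RNA gene 85053 bases away, had 86 and 62 counts in Du145-P, none in Du145-DtxR, while Du145-CbzR had 62 and 58. It was lower in Du145-DtxR (edgeR adjusted p = 6.866e-07) and not called in Du145-CbzR, where its log2 fold change was -0.32 (edgeR adjusted p = 0.311). On the other side, IGF1R, the receptor of insulin-like growth factor 1, was lower in both lines by log2 fold changes of -1.10 and -1.62, and the intermediate filament gene SYNM was lower by -1.34 in Du145-DtxR and at -0.03 in Du145-CbzR. MCTP2 rose by 1.42 in Du145-DtxR. In all, 5 of the 10 nearest tested neighbours of ARRDC4 were lower and 2 higher in Du145-DtxR, beside 32.0% and 31.1% of all genes, and 3 were lower and 1 higher in Du145-CbzR, beside 26.3% and 24.4%. The farthest lay 3476751 bases away.

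**Figure D3:**
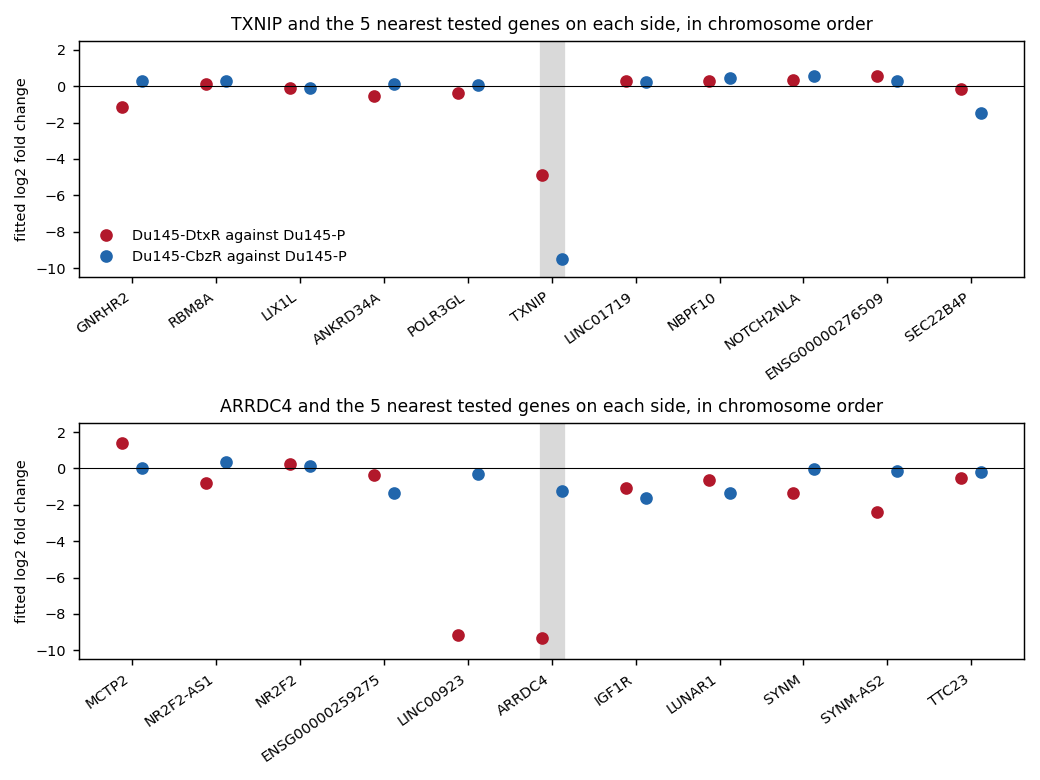
Fitted log2 fold changes against Du145-P (vertical axis) of TXNIP, ARRDC4 and their 5 nearest tested genes on each side in chromosome order (horizontal axis, not to scale), in Du145-DtxR (red) and Du145-CbzR (blue). Fitted values of genes at 0 or 1 count depend on the prior count; TXNIP lies below its 10 neighbours in both lines, and ARRDC4 is joined by LINC00923 in Du145-DtxR.

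The genes with the pattern most like that of TXNIP across the 6 libraries of the lines were FBLN5, an elastic-fibre glycoprotein gene, RAC2, SELENBP1, HMX1 and TTC22, with root mean square distances of 1.11, 1.57, 1.71, 1.73 and 1.73 in log2 CPM relative to the Du145-P mean. FBLN5 had 196 and 170 counts in Du145-P, against 12 and 8 in Du145-DtxR, and Du145-CbzR had 0 and 1. With 18218 genes tested, ARRDC4 ranked 535 by this distance, at 4.71, while TXNIP ranked 15507 by its distance from ARRDC4. The genes closest to ARRDC4 were ABTB3, LRATD2, TSPAN18, TRIB2 and NDRG1, at 0.22, 0.27, 0.28, 0.30 and 0.31. NDRG1, a gene induced by hypoxia and differentiation, had 4361 and 4427 counts in the parental libraries, 22 and 15 in those of Du145-DtxR, with 2212 and 2239 for Du145-CbzR. These distances are descriptions over libraries in which TXNIP was chosen for its pattern.

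Among 17 genes of glucose uptake and glucose-6-phosphate handling, Du145-DtxR had 8 higher and 8 lower (median log2 fold change -0.02, beside -0.02 over all genes tested, of which 31.1% were higher and 32.0% lower), whereas Du145-CbzR had 7 and 5 (median 0.11, beside a median of -0.01 over all genes, with 24.4% higher and 26.3% lower). SLC2A1, which encodes the transporter GLUT1 that TXNIP acts on, was at 83.6 and 89.1 CPM in Du145-P, then 161 and 154 in Du145-DtxR, while Du145-CbzR gave 101 and 111. It rose by 0.87 in Du145-DtxR (SE 0.06, edgeR adjusted p = 9.723e-08) and by 0.30 in Du145-CbzR (SE 0.06, edgeR adjusted p = 0.001102) on the log2 scale. TXNIP was lower in both lines, and a link between these RNA levels was not tested. SLC2A3, which encodes the high-affinity transporter GLUT3, was at 61.6 and 57.7 CPM in Du145-P, against 0.919 and 0.517 in Du145-DtxR, and Du145-CbzR had 93.9 and 93.1. Its log2 fold changes were -6.37 (SE 0.13, edgeR adjusted p = 8.785e-12) and 0.65 (SE 0.07, edgeR adjusted p = 7.209e-06). SLC2A10 was also nearly absent from Du145-DtxR and was not called in Du145-CbzR against Du145-P (edgeR adjusted p = 0.232), with 170 and 182 counts in the parental libraries, 0 and 2 in those of Du145-DtxR, with 201 and 224 for Du145-CbzR. With siBRPF1, 5 of 16 tested genes of this list rose and 4 fell, where 11.6% of all genes rose and 15.1% fell. HKDC1, GPI, PFKFB3, PFKFB4 and TIGAR rose, by 0.71, 0.30, 0.28, 0.40 and 0.50 on the log2 scale. SLC2A1 fell by 0.41, SLC2A3 by 1.48, SLC2A12 by 0.80 and SLC2A4, the insulin-responsive transporter gene, by 2.17 (edgeR adjusted p = 0.002955, 0.002542, 0.01027 and 7.709e-05). SLC2A3 and SLC2A4 were low in both arms, with means of 3.80 and 6.05 CPM with siControl and of 1.36 and 1.34 CPM with siBRPF1.

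The list of the thioredoxin system, in which TXNIP inhibits thioredoxin itself, held 19 tested genes. It also took in the glutaredoxin genes GLRX and GLRX2 and the kinase gene MAP3K5. In Du145-DtxR 11 of the 19 rose, with GLRX, GLRX2 and MAP3K5 among them, and 4 fell (median 0.18). In Du145-CbzR 9 rose and 4 fell, with GLRX and MAP3K5 among those that fell (median 0.11). Over all genes tested, 31.1% were higher and 32.0% lower in Du145-DtxR (median -0.02), and Du145-CbzR had 24.4% higher and 26.3% lower (median -0.01). TXN, the cytosolic thioredoxin gene that encodes the direct partner of TXNIP, was at 196 and 214 CPM in Du145-P, then 362 and 411 in Du145-DtxR, while Du145-CbzR gave 223 and 219. It rose in Du145-DtxR by 0.91 on the log2 scale (SE 0.06, edgeR adjusted p = 1.525e-07), while its value in Du145-CbzR was 0.11 (edgeR adjusted p = 0.192). TXNRD1, the gene of cytosolic thioredoxin reductase, went from 1790 and 1740 CPM in Du145-P to 1490 and 1430 in Du145-DtxR, and up to 2770 and 2750 in Du145-CbzR. Its log2 fold changes were -0.27 (edgeR adjusted p = 0.000249) and 0.65 (edgeR adjusted p = 3.568e-07). With siBRPF1, 4 genes of this list rose, GLRX2 among them, and 1, GLRX, fell, beside 11.6% and 15.1% of all genes. TXN was also among those that rose, by 0.45 on the log2 scale (edgeR adjusted p = 0.004381).

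Of 25 other genes reported to be bound or induced by MondoA or ChREBP, 20 were tested. In Du145-DtxR 6 were higher and 8 lower (median -0.08), in Du145-CbzR 3 were higher and 7 lower (median -0.14), and with siBRPF1 1 rose and 7 fell (median -0.11). The shares of all genes called higher and lower were 31.1% and 32.0% in Du145-DtxR (median -0.02), 24.4% and 26.3% in Du145-CbzR (median -0.01), and 11.6% and 15.1% with siBRPF1 (median -0.01). FASN, the fatty acid synthase gene, was at 441 and 453 CPM in Du145-P, then 472 and 404 in Du145-DtxR, compared with 943 and 1000 CPM for Du145-CbzR, where it rose by 1.12 on the log2 scale (SE 0.07, edgeR adjusted p = 8.886e-08). ACACB, an acetyl-CoA carboxylase gene, fell by 1.26 in Du145-DtxR (edgeR adjusted p = 1.362e-07). Called genes of this list therefore lay in both directions in every comparison. In the MYC/MAX/MLX network, MXD1, which encodes a MAX partner, rose by 1.65 in Du145-DtxR (edgeR adjusted p = 9.486e-09) and fell by 0.27 in Du145-CbzR (edgeR adjusted p = 0.0328), and 4 of 9 tested genes rose and 3 fell in Du145-DtxR (median -0.19), beside the same shares of all genes.

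**Figure D4:**
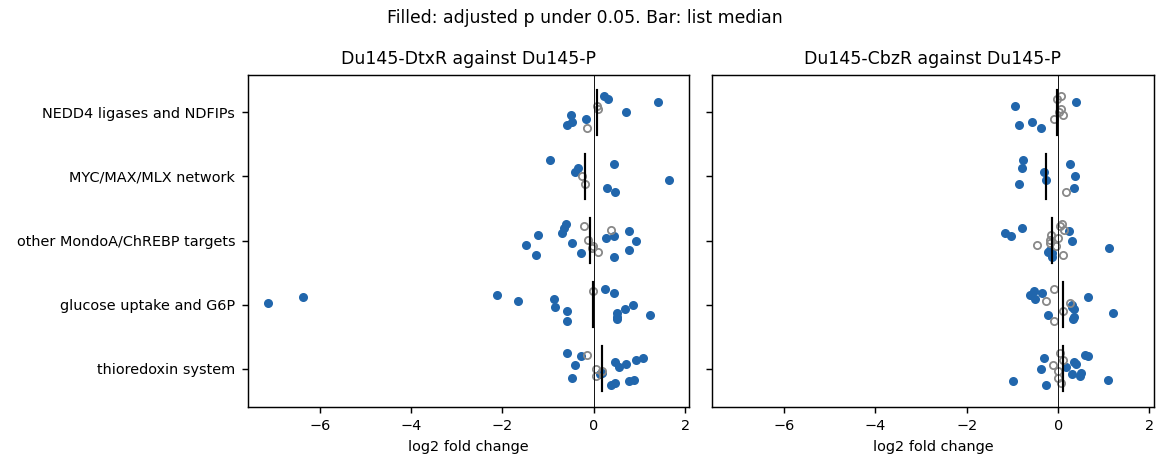
Log2 fold changes against Du145-P (horizontal axis) of the tested genes of 5 lists around TXNIP, in Du145-DtxR (left) and Du145-CbzR (right), with filled points at an adjusted p under 0.05, open points for the rest, and a bar at each list's median. Genes of every list lie on both sides of 0, and the lowest points in Du145-DtxR are SLC2A10 and SLC2A3 at -7.14 and -6.37.

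Of 11 NEDD4-family ligases and NDFIP adaptors, which ubiquitinate arrestin cargo, 4 rose and 4 fell in Du145-DtxR, and 1 rose and 4 fell in Du145-CbzR, where all genes tested gave 31.1% higher and 32.0% lower in the first line and 24.4% and 26.3% in the second. SMURF2 rose by 1.41 in Du145-DtxR (edgeR adjusted p = 3.783e-10) and SMURF1 fell by 0.94 in Du145-CbzR (edgeR adjusted p = 2.603e-07). Of 9 partners of ARRDC1 in microvesicle budding, 4 were higher and 2 lower in each line, beside those same shares, and VPS37A rose by 0.72 in Du145-DtxR (edgeR adjusted p = 1.529e-07), where ARRDC1 fell. The beta-arrestin genes ARRB1 and ARRB2 were lower in both lines, with log2 fold changes of -1.14 and -0.59 in Du145-DtxR (edgeR adjusted p = 2.614e-07 and 1.075e-06) and -0.50 and -0.72 in Du145-CbzR (edgeR adjusted p = 0.0002935 and 4.483e-07). Their list adds other arrestin-fold genes and held 6 tested genes. In Du145-DtxR 4 of these were higher and 2 lower, and in Du145-CbzR 1 was higher and 3 lower, beside those same shares of all genes.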

How the data were processed

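RNA-seq libraries of 2 experiments (6 each) were used. The deposited tables, whose sheets are named for TPM, hold estimated counts that the authors made with STAR and Salmon on GRCh38, since column totals differ and 58.4% and 62.8% of values above 0 are whole. Counts were rounded, 44 pseudoautosomal Y rows were added to their X copies, and genes were filtered with filterByExpr, scaled by TMM and tested with edgeR 4.0.16 (quasi-likelihood, 6 libraries per fit, Benjamini-Hochberg adjustment) in R 4.3.3, which was tested on simulated data. A gene was called at an adjusted p under 0.05. Coordinates and exon lengths are from GENCODE 44. Alternatives were DESeq2 1.42.0, other filters and scalings, fits of only the compared groups, a replicate block and leaving out each library. The 8 members and 14 gene lists were chosen with earlier results of these data known. Genes named were the members, BRPF1, the antisense genes, the 5 annotated genes on each side of TXNIP, the 5 with the nearest pattern, and up to 3 called genes per list and comparison with the largest change and at least 1 CPM, and any gene of lists of 11 or fewer. SLC2A1, the genes of its list that rose with siBRPF1, GLRX2, the genes around ARRDC4, and NBPF10, NOTCH2NLA and SEC22B4P were named after their values were seen. A comparison of protein sequences was not run. Counts have no molecular identifiers, so intervals cover counting error only.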

Additional observations from a re-analysis of the deposited data

Results flagged for a closer look

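The resistant lines differed from each other for 4 members, each by a test of Du145-CbzR against Du145-DtxR. That comparison equals the difference of the lines' changes from the shared Du145-P libraries. Over all genes tested it called 31.2% higher and 31.8% lower in Du145-CbzR, so such differences were common. ARRDC4 was at least 20.9-fold higher in Du145-CbzR, where Du145-DtxR had no count. MLXIPL differed by 1.31 on the log2 scale, ARRDC3 by -0.27 and MLXIP by -0.37, with negative values lower in Du145-CbzR. With 2 or 3 libraries in a group, single outlying libraries were not tested for.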

How the results depend on the processing

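No called result reversed. The members called higher in Du145-DtxR numbered 3, and 1 with DESeq2, with a mean of at least 1 CPM, with no filter on low counts or with only the compared groups fitted, and from 1 to 3 without single libraries (1 without either Du145-CbzR library, Du145-DtxR replicate 2 or Du145-P replicate 1), the calls lost being those of ARRDC3 and MLX. In Du145-CbzR 1 member was called higher, and 2 with a mean of at least 1 CPM, with only the compared groups fitted or with the replicate block, and from 1 to 2 without single libraries (2 without Du145-P replicate 2), the addition being MLX. Counts of list genes leave out the 8 members. They take in lists not described above: AMPK subunits, transcription factors reported at the TXNIP gene, glucocorticoid targets and inflammasome partners of TXNIP. With the added limit on the log2 fold change, list genes called higher and lower went from 62 and 41 to 9 and 12 in Du145-DtxR, from 39 and 45 to 3 and 6 in Du145-CbzR, from 39 and 59 to 10 and 14 between the resistant lines, and from 19 and 24 to 1 and 2 with siBRPF1. Without single siRNA libraries the list genes called with siBRPF1 ran from 10 to 17 higher and from 15 to 25 lower, with 10 and 15 without siControl replicate 2 and 11 higher without siBRPF1 replicate 1. The carbohydrate response element had 0 matches in the TXNIP window as first written and 1 with both ends on the same strand, a spelling chosen after seeing the data. The replicate block also left 2 members higher in Du145-DtxR. Whether replicate numbers pair the libraries was not settled. Deviations of same-numbered libraries correlated at -0.026, 0.089 and 0.028 in the lines. With 2 libraries per line, unlike-numbered ones must give the same values with the sign turned. In the knockdown, same-numbered libraries gave 0.054, 0.144 and 0.299, and unlike-numbered ones ran from -0.278 to 0.17. Without Du145-CbzR replicate 2 the TXNIP ratio has no value, since no count remains. At this depth, small differences in TXNIP within resistant cells and in ARRDC4 within Du145-DtxR were not detectable.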
